A study of Mus musculus with 9 samples.

Results

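The complement set described here holds 8 mouse genes, namely C1qa, C1qb, C1qc, C3, Cfb, Serping1, Masp1 and Cd55. A probe set was taken where the annotation of the array platform gave it exactly 1 gene symbol and that symbol was one of the 8. By this rule 7 genes were measured, by 14 of the 22626 probe sets that are no Affymetrix controls, and those 22626 probe sets carry 12393 genes in all. C1qa, C1qc, Cfb and Serping1 had 1 probe set each, C1qb had 3, Masp1 had 5 and Cd55 had 2, while C3 was not analysed here because the annotation gives no probe set that symbol alone.

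RNA of 9 cultures was hybridized to 9 MOE430A arrays, 3 for each of 3 groups, and the labels describe the populations as independent. Tumorspheres (TMS) are floating spheres grown in stem cell medium from mammary tumors of MMTV-Neu [N2O2] mice, in which the mouse mammary tumor virus promoter drives the Neu receptor mainly in mammary epithelium. Mammospheres (MMS) are the spheres that mammary gland cells of virgin FVB/N females form in the same medium. Mammospheres induced to differentiate (diffMMS, differentiated mammospheres below) came from the same kind of culture, whose cells were dispersed on collagen and kept for 7 days in serum. All spheres were at passage 3 to 5 and were started from bulk cell suspensions that had not been sorted. Any stromal or blood cell of the gland or tumor could therefore be carried along, and in bulk RNA fewer cells of a type and less RNA per cell cannot be told apart. Differentiated mammospheres differ from mammospheres in serum, in substrate and in time at once.

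Complement is a cascade of plasma proteins that tags and lyses targets. In the classical pathway C1q, a bundle built of A, B and C chains, binds antibody or altered surfaces and switches on the proteases C1r and C1s, which cut C4 and C2. In the lectin pathway MASP proteases attached to mannose-binding lectins or ficolins start the cascade, and in the alternative pathway factor B pairs with C3b and is itself a protease that cuts more C3. C1 inhibitor, the product of Serping1, blocks C1r, C1s and the MASPs, and CD55 takes apart the C3-cutting enzymes on the cell's own membrane. Liver makes most of the plasma proteins, but macrophages are the usual source of C1q in tissues, and fibroblasts and epithelial cells make several of the other components.

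Intensities are given below as log2 of the deposited value plus 8.67 after quantile normalization, and a log2 fold change is the first group named minus the second on that scale, so that it understates the change of dim probe sets. A probe set was called where its adjusted p was under 0.05 in 1 limma fit of the 3 groups, with Benjamini-Hochberg adjustment over the 22626 probe sets. Replicate values are listed in the order of the array codes, which are 1099A, 1100A and 1101A for tumorspheres, 861A, 862A and 863A for differentiated mammospheres and 858A, 859A and 860A for mammospheres. The tumorsphere arrays form a run of codes of their own and no batch is labelled, so that the array run and the difference between tumorspheres and the other cultures cannot be told apart. Spearman correlations between arrays of a group ran from 0.985 to 0.996 over all probe sets. Precision is limited by the small number of arrays.

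The measured complement genes fell into 2 patterns. The C1q chains had their lowest means in mammospheres and their highest in tumorspheres, but no C1q probe set was called between tumorspheres and differentiated mammospheres. Serping1, Masp1 and Cfb, each by its brightest probe set, were highest in differentiated mammospheres. Cd55 lay near the bottom of the intensity range in all 3 groups. In tumorspheres against mammospheres 3 of the 14 probe sets were higher (21.4%) and 0 were lower, where 6.5% of all probe sets were higher, 7.78% were lower and 14.3% were called in either direction. In tumorspheres against differentiated mammospheres 0 were higher and 5 were lower (35.7%), beside 12.2% higher, 11.4% lower and 23.7% in either direction over all probe sets. In differentiated mammospheres against mammospheres 7 were higher (50%) and 0 were lower, beside 16.1% higher, 17% lower and 33.1% in either direction. The median log2 fold change of the 14 was 0.12, 0.03 and 0.30 in these 3 comparisons, beside medians of -0.00145, -0.0184 and 0.0293 over all probe sets. In the same comparisons the groups did not overlap in 8 (57.1%), 6 (42.9%) and 8 (57.1%) of the 14. The shares without overlap over all probe sets were 33.3%, 37.4% and 51.6%. With array weights 8 probe sets were higher in tumorspheres than in mammospheres, beside 25.9% of all probe sets called in either direction, and 3 were higher and 5 lower in tumorspheres than in differentiated mammospheres, beside 28.3%. Several of the 14 probe sets report the same gene and are not independent. With each gene read by its brightest probe set, 3 of 7 were higher in tumorspheres than in mammospheres, 3 were lower in tumorspheres than in differentiated mammospheres, and 5 were higher in differentiated mammospheres than in mammospheres.

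**Figure D1:**
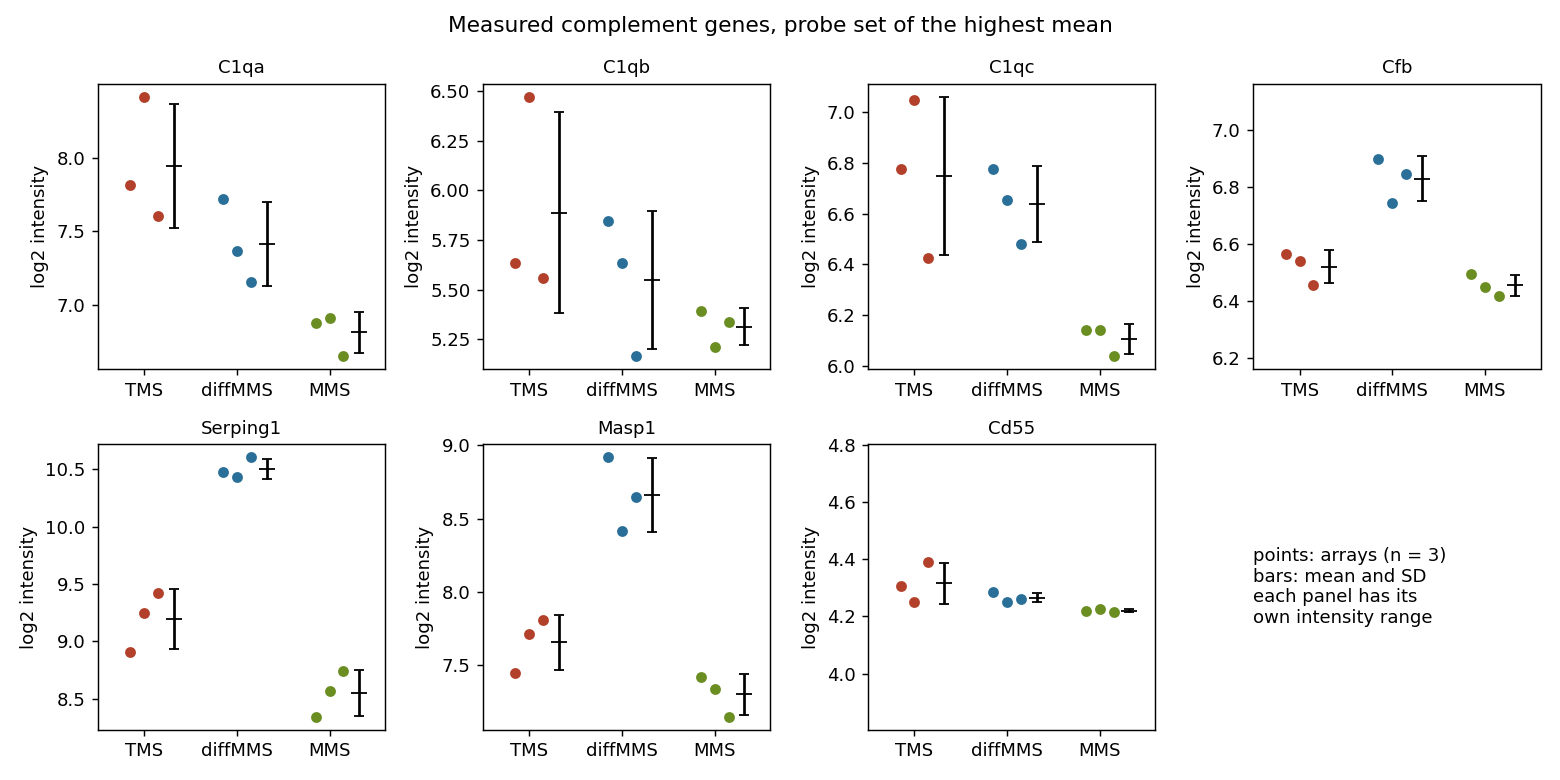
Log2 intensity (vertical axis, a separate range in each panel) of the 7 measured complement genes, each by its brightest probe set, in tumorspheres (TMS), differentiated mammospheres (diffMMS) and mammospheres (MMS). Points are arrays (n = 3), bars are the mean and SD. The C1q chains have their lowest means in mammospheres, whereas Serping1, Masp1 and Cfb have all 3 differentiated mammosphere arrays above every other array, and all Cd55 values lie between 4.22 and 4.39.

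The genes of the C1q chains lie together on chromosome 4 (GRCm38.p6), C1qb at chr4:136880126-136886200, C1qc at chr4:136889801-136892936 and C1qa at chr4:136895916-136898844, within a span of 18719 bases. C1qa and C1qc were higher in tumorspheres and in differentiated mammospheres than in mammospheres. C1qa had log2 intensities of 7.82, 8.41 and 7.60 in tumorspheres, 7.72, 7.37 and 7.16 in differentiated mammospheres and 6.88, 6.91 and 6.66 in mammospheres. Every array of the first 2 groups thus stood above every mammosphere array, while tumorspheres and differentiated mammospheres overlapped. The difference between tumorspheres and mammospheres was 1.13 (SE 0.19, adjusted p = 0.00209), which is 2.18-fold. That between differentiated mammospheres and mammospheres was 0.60 (adjusted p = 0.0290), which is 1.51-fold. This second call was lost on leaving out mammosphere array 858A, 859A or 860A (adjusted p = 0.0550, 0.0570 and 0.109) or differentiated array 861A or 862A (adjusted p = 0.118 and 0.0577). Between tumorspheres and differentiated mammospheres C1qa differed by 0.53 (95% interval 0.12 to 0.94, adjusted p = 0.0612). This passed the threshold with the values as deposited (0.56, adjusted p = 0.0425), with arrays centred on their median (0.56, adjusted p = 0.0394), under array weights (0.87, adjusted p = 0.00165) and without tumorsphere array 1101A (0.70, adjusted p = 0.0147) or differentiated array 861A (0.68, adjusted p = 0.0305).

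C1qc encodes the chain that shares each C1q stalk with the A and B chains. Its log2 intensities were 6.77, 7.05 and 6.43 in tumorspheres, 6.78, 6.65 and 6.48 in differentiated mammospheres and 6.14, 6.14 and 6.04 in mammospheres. The mammosphere arrays lie close together, the tumorsphere arrays are spread over a wider range, and mammospheres again overlap with neither of the other groups. C1qc was higher in tumorspheres than in mammospheres by 0.64 (SE 0.13, adjusted p = 0.00735) and in differentiated mammospheres than in mammospheres by 0.53 (adjusted p = 0.00987). These are 1.56-fold and 1.44-fold, and both calls stood in each of the 9 fits that left out 1 array. The difference between tumorspheres and differentiated mammospheres was 0.11 (95% interval -0.18 to 0.40, adjusted p = 0.577), and it was -0.0355 without tumorsphere array 1100A.

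C1qb, the gene of the B chain, did not pass the test in any comparison with any of its probe sets. Its brightest probe set read 5.63, 6.47 and 5.56 in tumorspheres, 5.84, 5.63 and 5.17 in differentiated mammospheres and 5.39, 5.21 and 5.34 in mammospheres. Each tumorsphere array is above each mammosphere array, but array 1100A stands well above the other tumorsphere arrays. The difference between tumorspheres and mammospheres was 0.57 (95% interval 0.10 to 1.04, adjusted p = 0.102). It came to 0.28 without array 1100A (adjusted p = 0.314), to 0.74 without array 1101A (adjusted p = 0.0337), and to 0.90 with array weights, which gave 1100A a weight of 2.33 (adjusted p = 0.00314). Against differentiated mammospheres tumorspheres differed by 0.34 (adjusted p = 0.284), and differentiated mammospheres and mammospheres differed by 0.23 (adjusted p = 0.432). The other C1qb probe sets, of the x_at kind that can also bind related transcripts, gave differences from 0.00 to 0.17 in the 3 comparisons, the lowest of which turned to -0.02 under other scalings, and one of them has a mean at percentile 1.12 of all probe sets. The correlation between the C1qb probe sets was 0.672 to 0.958 over the 9 arrays.

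Across the 9 arrays the C1q chains ran together. Pearson's r of log2 intensity was 0.945 between C1qa and C1qc, 0.882 between C1qa and C1qb and 0.824 between C1qb and C1qc. These are descriptions over 9 arrays that share the group differences. All 3 chains were highest in array 1100A among tumorspheres and in array 861A among differentiated mammospheres. Array 861A was also the highest of its group for Cfb and for the brightest probe sets of Masp1 and Cd55, but not for Serping1. RefSeq promoters (GRCm38.p6, 250 bases before to 50 after the start) were at hand for 4 of the 8 genes, C1qb, C1qc, C3 and Cd55, and those of the neighbouring pair C1qb and C1qc are shown because the chains varied together. Capitals mark matches to a form of the NF-kB site, GGGA and CC with any 4 bases between them, and to GAGGAA, the core bound by the myeloid factor PU.1, on either strand. The C1qb window is chr4:136886151-136886450 and the C1qc window chr4:136892865-136893164, both on the minus strand.
C1qb promoter: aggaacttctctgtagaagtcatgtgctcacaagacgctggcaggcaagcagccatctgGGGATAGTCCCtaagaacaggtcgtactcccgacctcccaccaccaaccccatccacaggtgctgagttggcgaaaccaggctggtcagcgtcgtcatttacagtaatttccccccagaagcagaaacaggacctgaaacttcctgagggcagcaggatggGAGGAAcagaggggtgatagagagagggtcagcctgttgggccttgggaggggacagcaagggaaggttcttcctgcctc
C1qc promoter: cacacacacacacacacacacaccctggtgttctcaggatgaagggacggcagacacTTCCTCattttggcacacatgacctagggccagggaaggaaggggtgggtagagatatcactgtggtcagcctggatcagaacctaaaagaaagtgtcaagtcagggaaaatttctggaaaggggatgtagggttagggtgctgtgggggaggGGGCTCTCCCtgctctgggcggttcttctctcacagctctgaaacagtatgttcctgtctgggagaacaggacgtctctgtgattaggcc
In C1qb the NF-kB letters match on both strands in 1 overlapping stretch, 191 and 190 bases before the start, and the PU.1 letters 30 bases before it. In C1qc the NF-kB letters lie 40 bases and the PU.1 letters 193 bases before the start, both on the other strand. The NF-kB letters occur in 20.7% and the PU.1 letters in 28.3% of the 32851 promoters in the table. All 4 promoters at hand hold NF-kB letters, that of C3 with 3 matches and that of Cd55 with 1. The PU.1 letters are in neither C3 nor Cd55. Neither window holds GAS (TTCNNNGAA, 8.3% of promoters), ISRE (GAAA and GAAA with any 2 bases between, 3.44%) or C/EBP (TTGCNNAA, 10.8%) letters. A match of letters describes the window and is no measured site.

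Macrophage genes were called more often than all probe sets in tumorspheres against mammospheres, and less often in differentiated mammospheres against mammospheres. Of 19 macrophage markers measured, 9 were higher and 0 were lower in tumorspheres than in mammospheres, 5 were higher and 0 lower in tumorspheres than in differentiated mammospheres, and 4 were higher and 1 lower in differentiated mammospheres than in mammospheres. The called shares, 47.4%, 26.3% and 26.3%, stand beside 14.3%, 23.7% and 33.1% of all probe sets. The summed level of the macrophage markers on the linear scale was 2259 to 3381 in tumorspheres, 1601 to 2157 in differentiated mammospheres and 1462 to 1545 in mammospheres. The highest sum of each of the first 2 groups was again in arrays 1100A and 861A. Among differentiated mammospheres, 861A also had the highest sums of the luminal, endothelial, leukocyte, interferon and NF-kB lists described below. The fibroblast and basal sums were highest in 862A. The macrophage sum weighs bright genes such as Lyz2 most. The median log2 intensity over the list was 6.42 to 6.69 in tumorspheres, 6.14 to 6.26 in differentiated mammospheres and 6.09 to 6.23 in mammospheres, so that by this measure the last 2 groups overlap. Lyz2, the lysozyme of macrophages, was higher in tumorspheres by 2.29 against mammospheres (adjusted p = 7.7e-04) and by 1.49 against differentiated mammospheres (adjusted p = 0.00553). Cd14, a co-receptor for bacterial lipopolysaccharide, was higher by 1.41 (adjusted p = 4.8e-06) and 0.93 (adjusted p = 3.0e-05) in the same comparisons and by 0.47 in differentiated mammospheres against mammospheres (adjusted p = 0.00357). Csf1r, the receptor for macrophage colony-stimulating factor, read 7.92, 8.09 and 7.71 in tumorspheres, 8.27, 8.12 and 7.92 in differentiated mammospheres and 7.63, 7.35 and 7.45 in mammospheres. It was higher than in mammospheres in tumorspheres by 0.43 (adjusted p = 0.0296) and in differentiated mammospheres by 0.63 (adjusted p = 0.00165). The 1 macrophage gene lower in differentiated mammospheres was Cd68, a lysosomal protein (-0.51, adjusted p = 0.0171).

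Some other markers of macrophages and leukocytes were dim. Adgre1, which encodes F4/80, had means at percentile 26.0 of all probe sets in tumorspheres, 25.7 in differentiated mammospheres and 23.9 in mammospheres, and differed by 0.10 between tumorspheres and mammospheres (adjusted p = 0.400). Cd163, a scavenger receptor, lay at percentile 4.3, 4.13 and 4.87 in these groups, and Ptprc, which encodes the leukocyte antigen CD45, at 14.9, 13.3 and 12.6. Others of the macrophage list were brighter. Laptm5 lay at percentile 70.7, 72.7 and 66.4 and Mpeg1 at 59.9, 56.2 and 50.7 in the same groups. Such percentiles rank brightness on the array and do not measure transcript number. The correlation of C1qa, C1qb and C1qc with the median of the macrophage list was 0.920, 0.871 and 0.778 over the 9 arrays, and 0.908, 0.916 and 0.858 after the group means were subtracted. Values as high were found for genes outside the list, picked for their high r with the chains. After the same subtraction r was 0.942 between C1qa and Slc5a3, 0.972 between C1qb and Pinx1 and 0.939 between C1qc and Nanos1. The part of macrophage genes in the C1q differences was not tested.

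**Figure D2:**
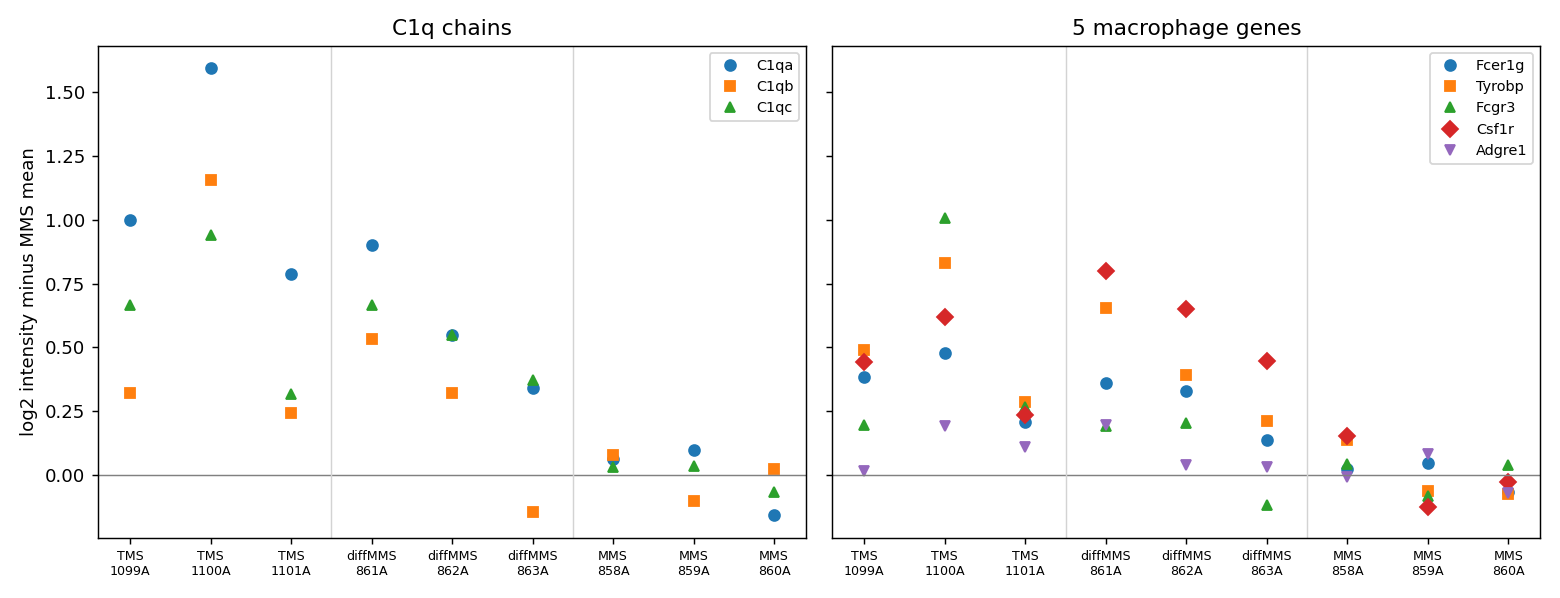
Log2 intensity minus the mammosphere mean (vertical axis) in each of the 9 arrays (horizontal axis, by group and array code). Left are the C1q chains, right 5 of the 19 macrophage genes measured. The 5 include Fcer1g and Fcgr3, the genes most like C1qc and C1qb in these arrays. Cd68, which was lower in differentiated mammospheres than in mammospheres, is not among them. The C1q chains peak at array 1100A among tumorspheres and at array 861A among differentiated mammospheres, Csf1r is highest in 861A, and Adgre1 stays within 0.2 of the mammosphere mean.

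Serping1 encodes C1 inhibitor, the serpin that shuts down C1r, C1s and the MASPs, and it lies at chr2:84765360-84775444. It had the largest differences of the 14 probe sets in the comparisons with differentiated mammospheres. Its log2 intensities were 8.91, 9.25 and 9.42 in tumorspheres, 10.47, 10.44 and 10.60 in differentiated mammospheres and 8.34, 8.56 and 8.74 in mammospheres. No group overlaps with another, in the order differentiated mammospheres, tumorspheres, mammospheres. Deposited intensities were 436 to 719.8 in tumorspheres, 1236 to 1498 in differentiated mammospheres and 324 to 451 in mammospheres, so the tumorsphere and mammosphere ranges of the values as deposited overlap. Serping1 was higher in differentiated mammospheres than in mammospheres by 1.96 (SE 0.13, adjusted p = 4.8e-07), which is 3.88-fold. Tumorspheres were lower than differentiated mammospheres by 2.48-fold (log2 fold change -1.31, adjusted p = 1.6e-05). Tumorspheres were higher than mammospheres by 0.64 (adjusted p = 0.00645), which is 1.56-fold. The last call was lost when arrays were centred on their median in place of quantile normalization (0.49, adjusted p = 0.0819).

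Masp1, at chr16:23451785-23521240, encodes proteases of the lectin pathway. In mouse and human its transcripts are spliced into MASP-1, MASP-3 and a short form without protease domain, and which of these each probe set reads is not given in the sources used here. The brightest probe set read 7.45, 7.71 and 7.81 in tumorspheres, 8.92, 8.42 and 8.65 in differentiated mammospheres and 7.42, 7.33 and 7.15 in mammospheres. The differentiated arrays stood apart from all others. Differentiated mammospheres were 2.57-fold above mammospheres (log2 fold change 1.36, SE 0.13, adjusted p = 1.1e-05), and tumorspheres were 2.01-fold below differentiated mammospheres (-1.01, adjusted p = 1.5e-04). Between tumorspheres and mammospheres the difference was 0.36 (95% interval 0.07 to 0.64, adjusted p = 0.0977), although the groups do not overlap. It passed the threshold without tumorsphere array 1099A (0.46, adjusted p = 0.0476) and, weighting the arrays, came to 0.38 (adjusted p = 0.0171).

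A second Masp1 probe set gave the same order. It read 6.56, 6.77 and 6.80 in tumorspheres, 7.90, 7.71 and 7.65 in differentiated mammospheres and 6.61, 6.55 and 6.66 in mammospheres. Its difference was 1.14 between differentiated mammospheres and mammospheres (adjusted p = 2.1e-06), -1.04 between tumorspheres and differentiated mammospheres (adjusted p = 5.3e-06) and 0.10 between tumorspheres and mammospheres (adjusted p = 0.518). The x_at probe set of Masp1 moved in the same direction by less, with 0.39 in differentiated mammospheres against mammospheres (adjusted p = 0.00644) and -0.33 in tumorspheres against differentiated mammospheres (adjusted p = 0.0212). This second difference was no longer called without tumorsphere array 1099A (adjusted p = 0.0600) or differentiated array 861A (adjusted p = 0.0720), or in a fit of these groups alone (adjusted p = 0.05001). The last 2 Masp1 probe sets were called in no comparison, with differences from -0.13 to 0.14 and adjusted p from 0.145 to 0.746. The correlation between the 5 probe sets over the 9 arrays was 0.121 to 0.966, so that the gene's change depends on the probe set read.

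**Figure D3:**
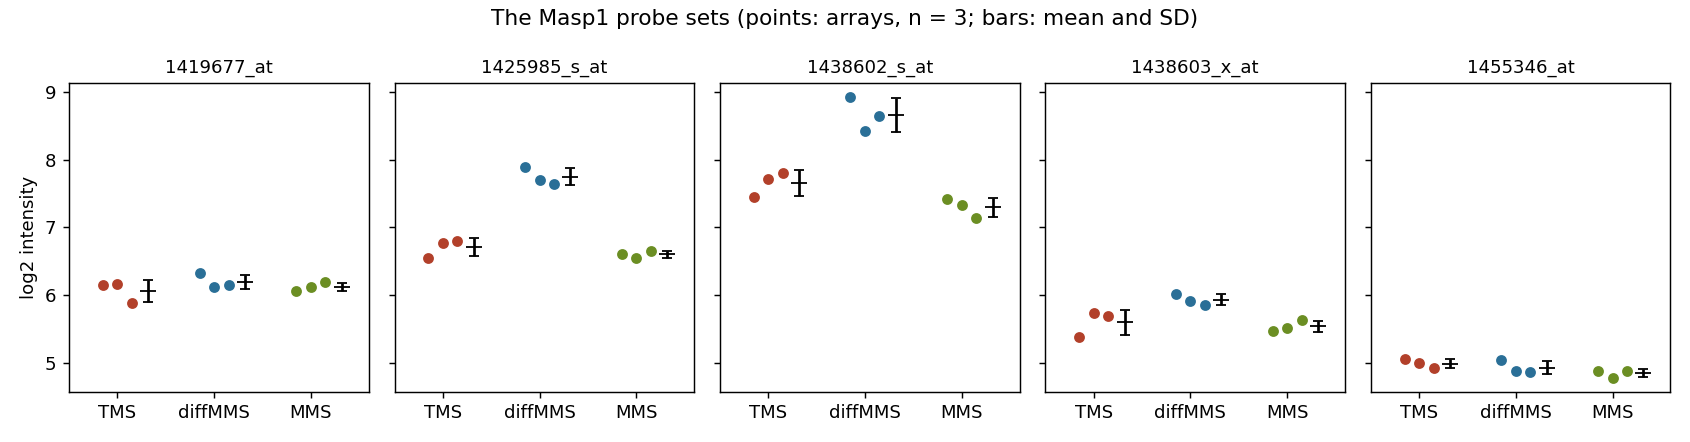
Log2 intensity (vertical axis, shared) of the 5 Masp1 probe sets in tumorspheres (TMS), differentiated mammospheres (diffMMS) and mammospheres (MMS), with arrays as points (n = 3) and the mean and SD as bars. The differentiated arrays stand clear of the others in 1438602_s_at and 1425985_s_at and by less in 1438603_x_at, and overlap with them in the remaining 2.

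Cfb, the factor B gene of the alternative pathway, lies at chr17:34856374-34862514 in the major histocompatibility region. Its log2 intensities were 6.56, 6.54 and 6.46 in tumorspheres, 6.90, 6.74 and 6.85 in differentiated mammospheres and 6.50, 6.45 and 6.42 in mammospheres. The differentiated arrays were again above all others, by a small step. Differentiated mammospheres exceeded mammospheres by 0.37 (SE 0.07, adjusted p = 0.00195), which is 1.30-fold, and tumorspheres were below differentiated mammospheres by 1.24-fold (-0.31, adjusted p = 0.00827). In tumorspheres against mammospheres the difference was 0.07 (95% interval -0.09 to 0.22, adjusted p = 0.617). C2, the classical pathway relative of factor B, lies 87 bases from Cfb, and it read 8.35, 7.83 and 8.42 in tumorspheres, 8.47, 8.14 and 8.37 in differentiated mammospheres and 8.21, 8.61 and 8.42 in mammospheres. All groups overlap, and C2 was called in no comparison (differences -0.21, -0.13 and -0.09, adjusted p 0.410 to 0.696).

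Over the 9 arrays r was 0.954 between Serping1 and Masp1, 0.952 between Cfb and Masp1 and 0.899 between Cfb and Serping1, and 0.0910 to 0.491 between these genes and the C1q chains. Cd55, at chr1:130429798-130465009, encodes the membrane-anchored decay-accelerating factor. Its brighter probe set read 4.31, 4.25 and 4.39 in tumorspheres, 4.28, 4.25 and 4.26 in differentiated mammospheres and 4.22, 4.23 and 4.22 in mammospheres, with a mean at percentile 3.68. Both Cd55 probe sets gave differences between -0.06 and 0.10 and passed the test in no comparison (adjusted p 0.0954 to 0.827), and they correlated with r = 0.137. The brighter one came to 0.12 between tumorspheres and mammospheres with the values as deposited (adjusted p = 0.0489). Near the bottom of the range a change of Cd55 may go undetected, and none was called with quantile normalization.

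**Figure D4:**
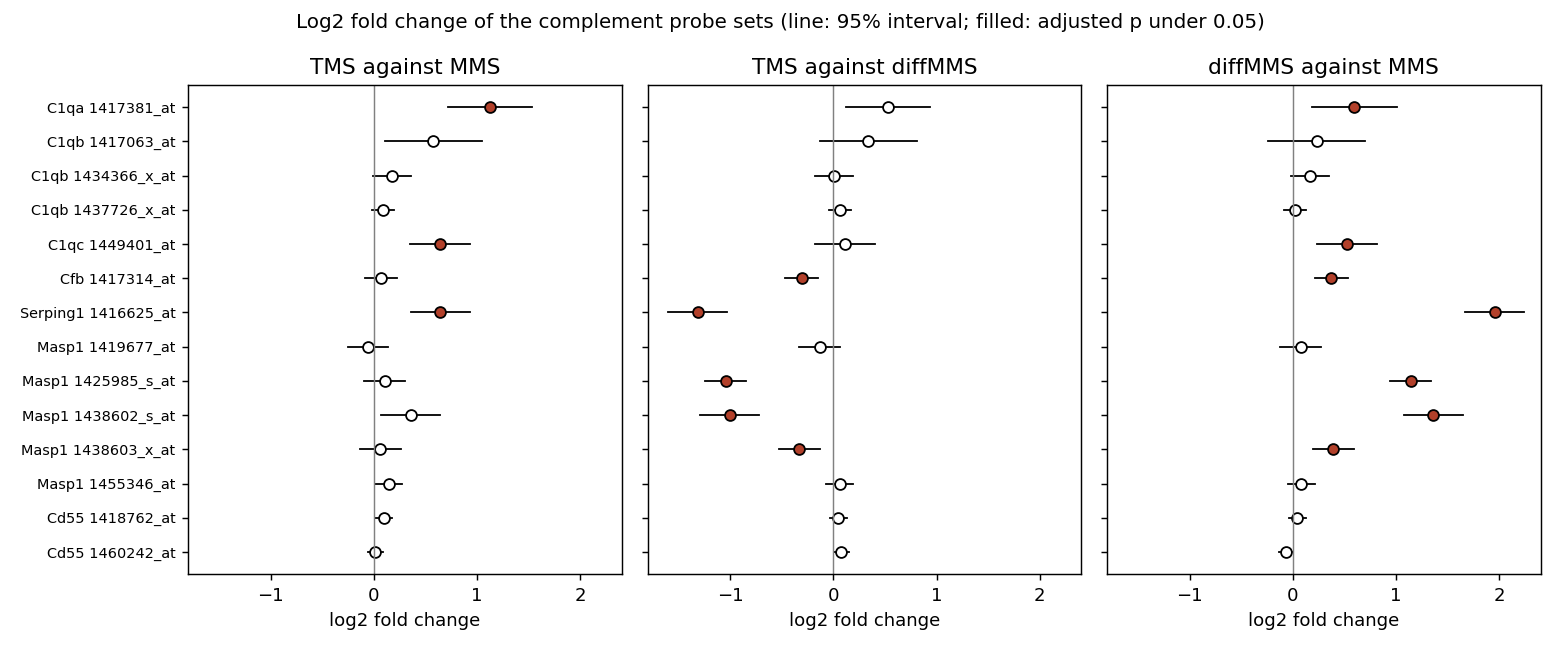
Log2 fold change (horizontal axis) of the 14 complement probe sets in tumorspheres (TMS) against mammospheres (MMS), in tumorspheres against differentiated mammospheres (diffMMS) and in differentiated mammospheres against mammospheres. Lines are 95% intervals and filled points have an adjusted p under 0.05, namely 3, 5 and 7 of the 14. The 5 called in tumorspheres against differentiated mammospheres are all below 0, and the calls in the other panels are all above 0.

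The rest of the pathway was read from 36 other complement genes that were measured, each by its brightest probe set. In tumorspheres against mammospheres 4 were higher and 4 were lower (median 0.04), in tumorspheres against differentiated mammospheres 3 were higher and 6 were lower (median -0.04), and in differentiated mammospheres against mammospheres 9 were higher and 3 were lower (median 0.09). The called shares, 22.2%, 25% and 33.3%, stand beside 14.3%, 23.7% and 33.1% of all probe sets. C4a, C4b and Cfd were not analysed here.

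Among the partners of C1q, the protease genes C1s1 and C1ra, which lie 6903 bases apart on chromosome 6, followed the order of Serping1 in part. C1s1 read 8.43, 8.04 and 7.98 in tumorspheres, 9.66, 9.50 and 9.79 in differentiated mammospheres and 8.45, 8.53 and 8.33 in mammospheres. It was higher in differentiated mammospheres than in mammospheres by 1.21 (adjusted p = 1.2e-05) and lower in tumorspheres than in differentiated mammospheres (-1.50, adjusted p = 2.5e-06), with -0.28 between tumorspheres and mammospheres (adjusted p = 0.144). C1ra was lower in tumorspheres than in differentiated mammospheres (-1.04, adjusted p = 2.6e-04) and than in mammospheres (-0.52, adjusted p = 0.0345), and higher in differentiated mammospheres than in mammospheres by 0.52 (adjusted p = 0.0171). The probe sets of mouse C1r and C1s genes may read their close copies too. Masp2, the other MASP protease gene, and Cfp, the properdin gene, were called in no comparison, with differences from -0.05 to 0.09. Colec12, a collectin of the cell membrane, read 6.43, 6.27 and 6.65 in tumorspheres, 6.12, 6.08 and 6.11 in differentiated mammospheres and 7.45, 7.54 and 7.60 in mammospheres. It was thus lower than in mammospheres in both other groups (-1.08 and -1.43, adjusted p = 2.3e-05 and 4.3e-07), and higher in tumorspheres than in differentiated mammospheres by 0.35 (adjusted p = 0.0188).

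Of 12 other regulators measured, Clu, the gene of the lytic complex inhibitor clusterin, had the largest difference between tumorspheres and the other groups. It read 9.15, 9.74 and 10.04 in tumorspheres, 7.95, 7.62 and 7.78 in differentiated mammospheres and 7.59, 7.55 and 7.64 in mammospheres. Tumorspheres exceeded mammospheres by 2.05 (adjusted p = 1.8e-05) and differentiated mammospheres by 1.86 (adjusted p = 9.6e-06), and differentiated mammospheres and mammospheres differed by 0.19 (adjusted p = 0.422). Cd59a, which blocks the lytic complex on membranes, was higher than in mammospheres by 0.51 in tumorspheres (adjusted p = 0.00352) and by 0.48 in differentiated mammospheres (adjusted p = 0.00213). Cfi, the protease that inactivates C3b and C4b, was higher in differentiated mammospheres than in mammospheres by 0.50 (adjusted p = 0.00273), and lower in tumorspheres than in differentiated mammospheres (-0.50, adjusted p = 0.00326). Cr1l, the mouse membrane regulator Crry, differed by 0.13, 0.17 and -0.04 in the 3 comparisons and was not called.

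Among 6 terminal components measured, Hc, the C5 gene, was lower than in mammospheres in tumorspheres (-0.46, adjusted p = 0.0114) and in differentiated mammospheres (-0.42, adjusted p = 0.00930). C6, which joins the lytic complex after C5, was higher in differentiated mammospheres than in mammospheres by 0.37 (adjusted p = 0.00994) and lower in tumorspheres than in differentiated mammospheres (-0.49, adjusted p = 0.00276). Itgb2, the beta chain of the leukocyte receptors for cleaved C3, was higher in tumorspheres by 0.37 against mammospheres (adjusted p = 0.0151) and by 0.43 against differentiated mammospheres (adjusted p = 0.00401), while Itgam, its alpha chain in complement receptor 3, differed by 0.05 between tumorspheres and mammospheres (adjusted p = 0.643). Cd93, once described as a C1q receptor and found on endothelium and myeloid cells, was lower than in mammospheres in tumorspheres (-0.62, adjusted p = 0.00838) and in differentiated mammospheres (-0.46, adjusted p = 0.0182). Vsig4, a macrophage receptor for C3 fragments, was higher in differentiated mammospheres than in mammospheres by 0.36 (adjusted p = 0.0115) and lower in tumorspheres than in differentiated mammospheres (-0.34, adjusted p = 0.0197). The receptors for the C3a and C5a fragments, C3ar1 and C5ar1, differed by 0.22 and 0.20 between tumorspheres and mammospheres and were called in no comparison.

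**Figure D5:**
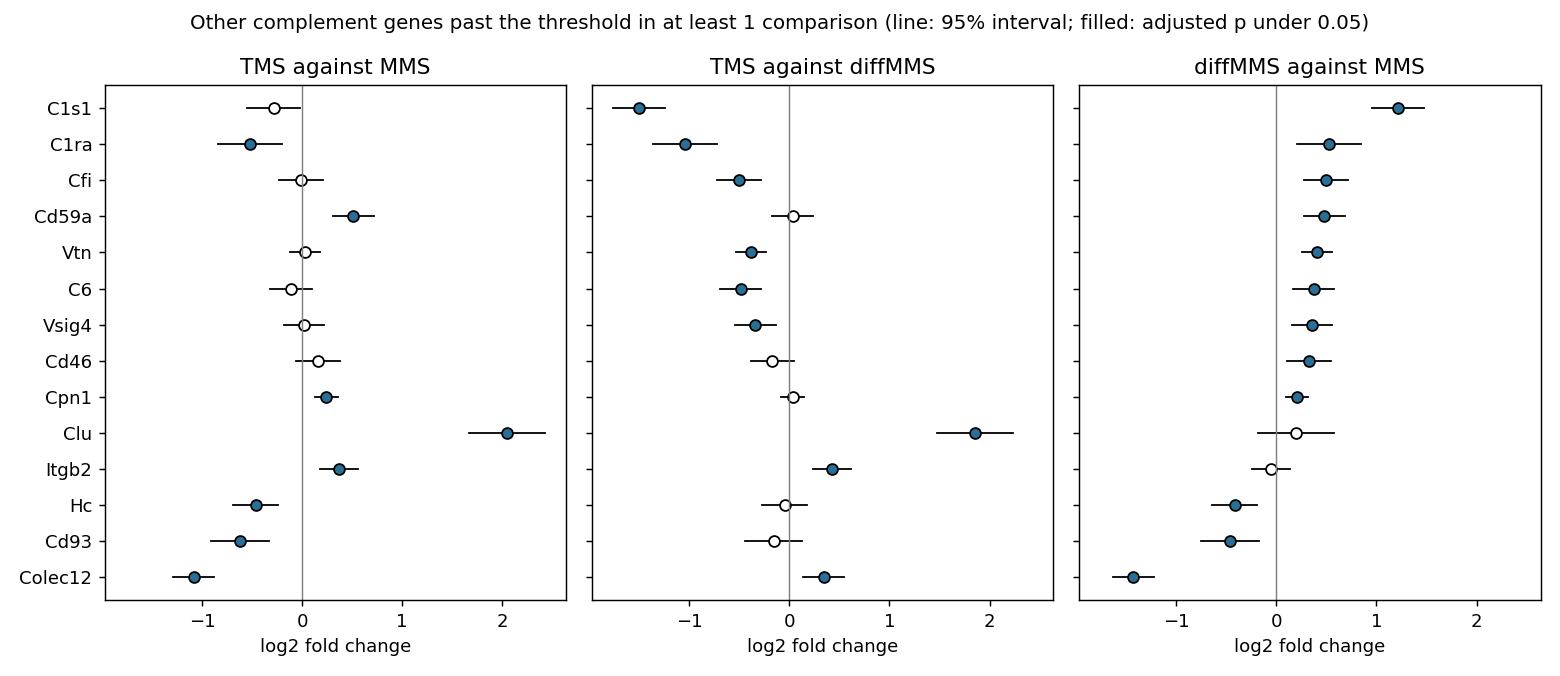
Log2 fold change (horizontal axis) of the 14 other complement genes called in at least 1 comparison, in the 3 comparisons named above the panels (TMS tumorspheres, diffMMS differentiated mammospheres, MMS mammospheres). Lines are 95% intervals and filled points have an adjusted p under 0.05. Clu stands highest in both tumorsphere panels, C1s1 lowest in tumorspheres against differentiated mammospheres and highest in differentiated mammospheres against mammospheres, and Colec12 lowest in both panels against mammospheres.

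Markers of the other cell types and responses were read with the same fit. Fibroblast markers were bright in all groups, with means from percentile 77.7 upwards. Of 10 such genes, 1 was higher and 1 lower in tumorspheres than in mammospheres, 3 higher and 6 lower in tumorspheres than in differentiated mammospheres, and 6 higher and 3 lower in differentiated mammospheres than in mammospheres. Luminal epithelial markers were higher in tumorspheres, 10 of 12 against mammospheres and 11 of 12 against differentiated mammospheres, and several of them were dim in the cultures labelled mammospheres. Krt18 lay at percentile 97.8 in tumorspheres and 33.1 in mammospheres, and Elf5 at percentile 79.1 in tumorspheres and 13.7 in mammospheres. In differentiated mammospheres 2 of the 12 were higher than in mammospheres and 0 were lower. Of 9 basal epithelial genes 0 were called between tumorspheres and mammospheres, 1 was higher and 5 lower in tumorspheres than in differentiated mammospheres, and 5 were higher in differentiated mammospheres than in mammospheres. The last include the smooth muscle genes Tagln (3.73) and Acta2 (2.59). Of 7 endothelial genes 4 were lower in tumorspheres against each of the other groups, and 1 was higher and 1 lower in differentiated mammospheres than in mammospheres. Of 10 pan-leukocyte and lymphocyte genes 0 were called in tumorspheres against mammospheres, 1 was higher and 1 lower in tumorspheres than in differentiated mammospheres, and 2 were higher and 1 lower in differentiated mammospheres than in mammospheres. In these 3 comparisons the called shares were 20%, 90% and 90% of fibroblast genes and 83.3%, 91.7% and 16.7% of luminal genes. They were 0%, 66.7% and 55.6% of basal genes and 57.1%, 57.1% and 28.6% of endothelial genes. For pan-leukocyte and lymphocyte genes they were 0%, 20% and 30%, and over all probe sets 14.3%, 23.7% and 33.1%. The summed linear level of the fibroblast list was 32300 to 37074 in tumorspheres, 48722 to 49717 in differentiated mammospheres and 37115 to 39752 in mammospheres, and that of the basal list 1037 to 1150, 3878 to 5336 and 958 to 1036 in the same groups. Both sums were highest in differentiated mammospheres, where Serping1, Masp1 and Cfb were highest too. The sums weigh bright genes most, in the basal list Acta2 and Tagln. Krt14 was not among the 5 basal genes called higher in differentiated mammospheres than in mammospheres (-0.01, adjusted p = 0.993). In the same comparison 6 fibroblast genes were higher, and Lum (-1.84) and Fap (-1.04) fell most among the 3 that were lower. The medians of the lists separate the groups less, with 11.51 to 11.94 in tumorspheres, 11.98 to 12.17 in differentiated mammospheres and 11.97 to 12.05 in mammospheres for fibroblast genes and 6.11 to 6.56, 6.49 to 6.57 and 5.94 to 6.01 for basal genes in the same groups. The part of these cell types in the differences was not tested.

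Inducers of complement genes in other tissues include interferons and the NF-kB and acute phase response. Of 21 interferon response genes, 1 was lower in tumorspheres than in mammospheres, 3 were higher and 2 lower in tumorspheres than in differentiated mammospheres, and 1 was higher and 3 lower in differentiated mammospheres than in mammospheres, the last led by Oasl2 (-1.01) and Psmb8 (-0.85). Of 21 NF-kB and acute phase genes the counts were 3 higher and 0 lower, 6 higher and 3 lower, and 4 higher and 3 lower in the same order. The called shares were 4.76%, 23.8% and 19% of interferon response genes and 14.3%, 42.9% and 33.3% of NF-kB and acute phase genes. Those over all probe sets were 14.3%, 23.7% and 33.1%. Lcn2, a secreted iron-carrier binding protein, was higher in tumorspheres by 5.42 against mammospheres and by 5.84 against differentiated mammospheres. In differentiated mammospheres against mammospheres Saa3, an acute phase apolipoprotein, was higher by 2.58 and the transcription factor gene Cebpd by 1.28, while the chemokine gene Ccl2 was lower (-2.22).

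Outside complement, the genes most like each member were sought by Pearson's r of log2 intensity over the 9 arrays, which share the group differences. C1qc was most like Fcer1g and Alox5ap (0.983 each), an Fc receptor chain and a leukotriene pathway gene of myeloid cells, followed by Nanos1 (0.980). C1qb was most like Fcgr3, another Fc receptor gene, and Pinx1 (0.960 each), then Pf4 (0.956), and C1qa like Tcf25 (0.976), Slc5a3 (0.973) and Lyz1 (0.972), whose probe set may also read its near-identical copy Lyz2. Serping1 was most like Thbs1, the thrombospondin 1 gene (0.989), Il4ra (0.988) and Cryab (0.988). Masp1 stood nearest to Hspa4l (0.983), Enc1 and Wnt5a (0.978 each), Cfb to Ahsg (0.994), Zfp444 (0.993) and Defa31 (0.988), and Cd55 to Myo5b (0.973), Tc2n (0.970) and Gjb2 (0.965). Every member had genes with such high values of r, as 9 arrays and 12393 genes allow.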

How the data were processed

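RNA of 3 tumorsphere, 3 differentiated mammosphere and 3 mammosphere cultures was measured on 9 MOE430A arrays, and groups were taken from the sample labels. The authors deposited 1 intensity per probe set and array on a linear scale, already summarised. The paper names GeneSpring, and the summary method and scaling are not given in the sources used here. From the deposited intensities, log2(intensity + 8.67), with an offset of 10% of the median, was computed and quantile normalized, because array quartiles differed by up to 0.134. Group means were fitted with limma 3.58.1 in R 4.3.3 (lmFit, eBayes with an intensity trend, 6 residual degrees of freedom), two-sided, with Benjamini-Hochberg adjustment over 22626 probe sets. Probe sets were named by the platform table, 20380 with 1 symbol, 691 with several and 1555 with none. Gene positions and promoters come from RefSeq tables of GRCm38.p6.

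The members and gene lists were chosen with earlier results of these data known. Named genes are all members, their listed partners, the 3 other complement genes that rose most and the 3 that fell most in each comparison, the 2 largest changes each way of each marker list, and the 3 genes most like each member. Not all of these are printed. Adgre1, Cd163, Ptprc, Laptm5, Mpeg1, Elf5, C6 and Vsig4 were named in addition and were not picked by this rule. Alternatives were other scaling, offsets, filters, variance models, array weights, thresholds and each array left out. P-values set a difference between group means against the spread between cultures within groups.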

Additional observations from a re-analysis of the deposited data

How the results depend on the processing

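Of 819 values of single probe sets under an alternative, 772 kept their direction and their side of the threshold, 19 lost the call, 16 gained one and 12, none of them called, changed sign. With array weights, 8 complement probe sets were called in tumorspheres against mammospheres, 8 in tumorspheres against differentiated mammospheres, and 13 other complement genes in tumorspheres against mammospheres. Of all probe sets 25.9% were then called in tumorspheres against mammospheres and 28.3% in tumorspheres against differentiated mammospheres. At an adjusted p under 0.01, 5 other complement genes were called in tumorspheres against mammospheres and 7 in differentiated mammospheres against mammospheres. The shares of all probe sets in these comparisons were 6.85% and 19.7%. At a difference of at least 2-fold, 1, 3 and 3 complement probe sets and 2, 3 and 2 other complement genes were called in the 3 comparisons. Beside them stand 1.03%, 3.12% and 3.64% of all probe sets. Without 1 array, 3 to 4, 4 to 6 and 6 to 8 complement probe sets were called, and 5 to 9, 7 to 9 and 8 to 13 other complement genes, with the 5 found without mammosphere array 859A. Of all probe sets 8.25% to 18.1%, 19.1% to 24.9% and 23% to 36.9% were called in these fits.

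Sign changes were as follows. With the values as deposited, 1419677_at of Masp1 gave 0.00622 in tumorspheres against mammospheres and 1434366_x_at of C1qb -0.0242 in tumorspheres against differentiated mammospheres. With arrays centred on the median, 1460242_at of Cd55 gave -0.00951 in the first comparison and 1434366_x_at of C1qb -0.0221 in the second. Array weights gave 0.00146 for 1419677_at of Masp1. Leaving out 1 array in turn gave, in tumorspheres against mammospheres, -0.00268 to 0.168 for 1438603_x_at and -0.104 to 0.0349 for 1419677_at of Masp1. In tumorspheres against differentiated mammospheres it gave -0.0794 to 0.0787 for 1434366_x_at of C1qb, with -0.00701 and -0.0488 among them, and -0.0355 to 0.274 for C1qc, and in differentiated mammospheres against mammospheres -0.00324 to 0.0634 for 1437726_x_at of C1qb.

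Over all probe sets, 3231 were called in tumorspheres against mammospheres, 5860 with array weights, and 1866 and 1913 without mammosphere arrays 859A and 860A. At an adjusted p under 0.01 the counts in the 3 comparisons were 1549, 3166 and 4456, and at least 2-fold 234, 705 and 824. With arrays centred on the median, 1225 of 3591 called probe sets were higher in tumorspheres than in mammospheres, against 1471 of 3231, and 2903 of 7576 were higher in differentiated mammospheres than in mammospheres, against 3643 of 7489. The causes were not tested. No paired analysis was possible because the labels give no replicate numbers.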
